A study of Mus musculus with 24 samples.

Results

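The Trav12 family of the mouse T cell receptor alpha chain (Tcra) was described across its plain, D and N copies. Its members were the V segments listed under names that begin with TRAV12-, TRAV12D- or TRAV12N-. There were 9 of them among the 117 V segments of the Tcra tables, 3 of each copy class, and each was listed against 43 J segments. The series compared thymocytes, the developing T cells of the thymus, of Satb1-/- mice (KO) with those of wild-type mice (WT), all on the C57BL/6 strain and 4 to 12 weeks old. The series' design text writes the mutant as Satb1cKO. Neither the promoter that drives the deletion nor the cells in which it acts is stated in the sources used here. Each of the 4 receptor chains was amplified from total RNA in 3 libraries per genotype, and the 6 Tcra libraries are used here. The question put to them is whether Satb1, a nuclear protein that organises chromatin, shapes which receptor segments are used.

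A Tcra gene is assembled in each thymocyte by joining 1 V segment to 1 J segment. The first joins use J segments at the V-proximal (5′) side of the J array. Later joins on the same chromosome remove the first and use V segments farther upstream and J segments farther downstream, until a receptor passes selection. In C57BL/6 mice the central part of the V array is repeated, and the segments of the repeats carry the letters D and N. A Trav12 segment encodes the part of the alpha chain that holds the first 2 of its 3 antigen-contacting loops, and the J segment completes the third.

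All 9 members were found by name in the GENCODE M21 annotation of GRCm38, as V genes on the plus strand of chromosome 14. The D copies lie farthest from the J array. TRAV12D-1 is at chr14:52844465-52845041, TRAV12D-2 at chr14:52915799-52916426 and TRAV12D-3 at chr14:52929789-52930282. These are 1312, 1241 and 1227 kb upstream of Traj58, the first J segment listed in the tables. The N copies lie between the D and the plain copies. TRAV12N-1 is at chr14:53155512-53156088, TRAV12N-2 at chr14:53226773-53227400 and TRAV12N-3 at chr14:53240745-53241244, which are 1001, 929.9 and 916.0 kb upstream of Traj58. The plain copies are nearest to the J array. TRAV12-1 is at chr14:53538191-53538738, TRAV12-2 at chr14:53616315-53616914 and TRAV12-3 at chr14:53621657-53622245, which are 618.5, 540.4 and 535.0 kb upstream of Traj58.

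The last 289 bases of each V exon, which end at the join to J, were compared between the copies. Bases upstream of this stretch, which reads may also cover, are not described here. The D and the N copy of the same number were identical over this stretch for all 3 numbers. The plain copies differed from their D and N counterparts at 15 bases for number 1, 11 for number 2 and 10 for number 3. Members of different number shared 91.4% to 93.2% of bases. The 6 distinct sequences follow, 5′ to 3′ on the plus strand of GRCm38, with capitals at the bases that differ between the plain copy and the D copy of that number. The N copy of each number reads as the D copy does.
TRAV12-1: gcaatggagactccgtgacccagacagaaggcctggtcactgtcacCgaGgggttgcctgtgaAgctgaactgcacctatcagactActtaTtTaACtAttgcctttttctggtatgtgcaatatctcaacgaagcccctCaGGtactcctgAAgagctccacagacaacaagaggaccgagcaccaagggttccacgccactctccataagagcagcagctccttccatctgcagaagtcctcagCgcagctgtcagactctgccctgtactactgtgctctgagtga
TRAV12D-1: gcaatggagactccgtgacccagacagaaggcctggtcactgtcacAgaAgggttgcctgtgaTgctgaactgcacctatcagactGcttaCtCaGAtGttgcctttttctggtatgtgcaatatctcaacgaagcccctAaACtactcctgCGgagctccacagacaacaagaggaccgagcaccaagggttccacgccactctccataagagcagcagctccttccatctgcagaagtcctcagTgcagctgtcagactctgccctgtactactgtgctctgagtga
TRAV12-2: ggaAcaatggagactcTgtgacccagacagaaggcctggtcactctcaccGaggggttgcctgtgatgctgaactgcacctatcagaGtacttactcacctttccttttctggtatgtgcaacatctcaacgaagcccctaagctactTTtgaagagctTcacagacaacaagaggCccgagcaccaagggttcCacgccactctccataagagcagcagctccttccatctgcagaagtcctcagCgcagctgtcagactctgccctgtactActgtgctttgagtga
TRAV12D-2: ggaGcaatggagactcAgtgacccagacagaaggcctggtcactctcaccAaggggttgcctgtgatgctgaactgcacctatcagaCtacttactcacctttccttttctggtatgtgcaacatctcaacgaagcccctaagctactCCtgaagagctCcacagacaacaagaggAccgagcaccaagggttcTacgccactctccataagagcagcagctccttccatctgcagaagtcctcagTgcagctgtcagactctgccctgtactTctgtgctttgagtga
TRAV12-3: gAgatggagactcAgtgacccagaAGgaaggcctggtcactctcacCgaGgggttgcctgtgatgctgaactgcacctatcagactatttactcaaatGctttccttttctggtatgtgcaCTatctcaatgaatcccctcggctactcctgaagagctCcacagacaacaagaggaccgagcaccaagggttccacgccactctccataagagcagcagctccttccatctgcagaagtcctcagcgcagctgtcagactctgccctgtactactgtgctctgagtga
TRAV12D-3: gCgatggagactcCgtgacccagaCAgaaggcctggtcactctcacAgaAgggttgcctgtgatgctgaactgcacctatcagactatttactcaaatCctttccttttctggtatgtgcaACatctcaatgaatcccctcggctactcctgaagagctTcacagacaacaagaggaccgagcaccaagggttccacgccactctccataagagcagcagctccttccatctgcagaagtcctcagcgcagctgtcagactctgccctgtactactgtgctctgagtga
These stretches are chr14:53538450-53538738 for TRAV12-1, chr14:52844753-52845041 for TRAV12D-1, chr14:53616626-53616914 for TRAV12-2, chr14:52916138-52916426 for TRAV12D-2, chr14:53621957-53622245 for TRAV12-3 and chr14:52929994-52930282 for TRAV12D-3. The split between D and N copies in the tables therefore has no base in these stretches to rest on. How the authors' V caller assigned reads to one or the other is not stated in the sources used here.

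Each table gives the percentage of a library's V–J assignments that falls on each V–J pair, and the pairs of a library sum to 100%. A V segment's share is the sum over its pairs. Read numbers are not given, so depth is unknown. The smallest value above 0 was 0.0180%, 0.0593% and 0.117% in KO replicates 1, 2 and 3, against 0.0158%, 0.0157% and 0.0241% in WT replicates 1, 2 and 3. Of the 387 possible Trav12 pairs, 163, 45 and 51 were above 0 in the KO libraries, against 247, 253 and 214 in the WT libraries. KO replicates 2 and 3 thus resolve rare pairs least, and a pair listed at 0 there may be present below those values. The labels do not say that replicates came from separate mice, so the tests measure only the spread between these libraries. Fewer cells with a segment and fewer transcripts of it per cell cannot be told apart.

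The plain copies held most of the family's KO assignments. TRAV12-2, the most used member, took 2.78%, 2.73% and 3.28% of the KO libraries, against 4.56%, 5.16% and 5.03% of the WT libraries. All 3 KO values lay below all 3 WT values. TRAV12-1 took 1.05%, 1.54% and 2.70% of the KO libraries, against 1.13%, 1.53% and 1.08% of the WT libraries. TRAV12-3 took 0.866%, 0.712% and 2.23% of the KO libraries, against 1.44%, 1.21% and 1.40% of the WT libraries. Both overlapped between genotypes, and KO replicate 3 was the highest of the 6 libraries for each.

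Among the D copies, TRAV12D-3 was the most used and stood farthest apart. It took 2.06%, 0.297% and 1.17% of the KO libraries, against 5.42%, 3.74% and 3.32% of the WT libraries. TRAV12D-2 took 0.577%, 0.0593% and 0.703% of the KO libraries, against 0.824%, 0.991% and 1.13% of the WT libraries. Both lay below WT in every KO library. The TRAV12D-2 value of KO replicate 2 came from 1 pair at the smallest value of that library. TRAV12D-1 took 0.830%, 1.19% and 0.469% of the KO libraries, against 1.60%, 1.12% and 1.03% of the WT libraries, and the groups overlapped.

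The N copies were listed almost wholly as TRAV12N-2. It took 0.505%, 0% and 0.703% of the KO libraries, against 1.38%, 1.82% and 1.30% of the WT libraries, again with every KO value below every WT value. TRAV12N-1 was listed at 0 in all 3 KO libraries, against 0%, 0.0315% and 0.0481% in the WT libraries. TRAV12N-3 was listed at 0 in all 3 KO libraries, against 0.0158%, 0% and 0.0241% in the WT libraries. Although D and N copies have the same sequence for every number, the tables thus placed number 1 and number 3 under the D name and split number 2 between both names.

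**Figure D1:**
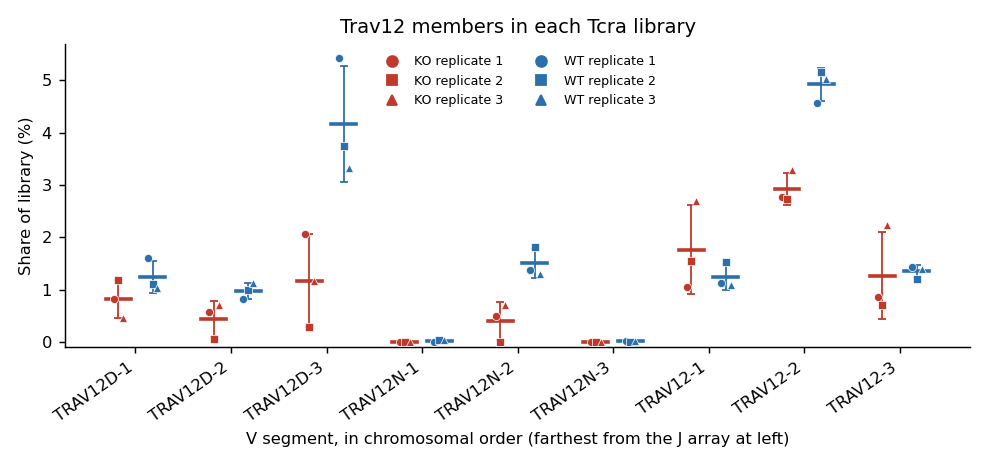
Share of each Tcra library (percent, vertical axis) taken by each of the 9 Trav12 members, in chromosomal order with the D copies at left and the plain copies at right. Points are single libraries, KO in red to the left of WT in blue, bars are means and whiskers SD (n = 3 each). TRAV12D-3 and TRAV12-2 show the widest gaps between genotypes, and TRAV12N-1 and TRAV12N-3 lie at or near 0 throughout.

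The shares were tested with limma on log2(percent + pseudocount), over the 84 V segments that averaged 0.1% or more. The pseudocount, 0.0157%, is the lowest non-zero value in the finest table, and fold changes of rare segments depend on it. The log2 fold change of TRAV12N-2, KO over WT, was -3.05, but -3.39 with 0.00787% and -2.03 with 0.117%. Its mean share in KO was 0.268 of that in WT. TRAV12N-1 and TRAV12N-3 fell under the 0.1% minimum, so 7 members were tested. None passed an adjusted p of 0.05 and 1 had an unadjusted p below 0.05, while 4.76% of all V segments passed. TRAV12D-3 had a log2 fold change, KO over WT, of -2.16 ± 0.76 (SE; limma adjusted p = 0.117). With a pseudocount of 0.117% instead, its limma adjusted p was 0.00538 and that of TRAV12N-2 was 0.00556, both lower in KO. With a variance trend TRAV12D-3 was the only member to pass (limma adjusted p = 0.0148). Among all 84 V segments, 18 passed with that pseudocount and 11 with the trend. By complete separation of the libraries, 4 of the 7 tested members were lower in KO and 0 were higher, beside 32.1% and 8.33% of all tested V segments.

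The log2 fold changes of the tested plain copies were 0.41 for TRAV12-1, -0.75 for TRAV12-2 and -0.27 for TRAV12-3, all with an SE between 0.46 and 0.59. Those of the D and N copies were -0.65 ± 0.55 for TRAV12D-1, -1.64 ± 0.89 for TRAV12D-2, -2.16 ± 0.76 for TRAV12D-3 and -3.05 ± 1.37 for TRAV12N-2 (SE). All D and N values but that of TRAV12D-1 were lower than all 3 plain values, though the differences between these estimates were not tested. Without KO replicate 2 the values were -0.60 for TRAV12D-2, -1.38 for TRAV12D-3 and -1.29 for TRAV12N-2, and TRAV12D-2 was then above TRAV12-2, at -0.70. The median over the 7 members was -0.75, beside -0.73 over all 84 V segments. In the other 13 families that have D or N copies the median was -0.37 over 34 plain, -1.22 over 20 D and -1.38 over 15 N segments. Shares of a library sum to 100%, and centring each library on the mean log2 value of its tested segments moved the median over all V segments to 0.20. That centring turned TRAV12-2 to 0.18, TRAV12-3 to 0.65 and TRAV12D-1 to 0.27, so for these 3 no direction holds under both scalings.

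Summed over all copies, the family took a smaller part of the KO libraries. Its share was 8.66%, 6.52% and 11.3% in the KO libraries, against 16.4%, 15.6% and 14.4% in the WT libraries. The means were 8.81% ± 2.37 in KO and 15.4% ± 1.01 in WT (SD, n = 3 each), a ratio of 0.571. The groups did not overlap. An exact permutation test, two-sided, gave p = 0.1, below which 3 libraries against 3 cannot go. The adjusted exact permutation p was 0.135 over the 23 single values compared between genotypes, and it holds for each value below with p = 0.1 unless another is given. When every listed pair got the same weight, whatever its percent, the difference shrank to -1.80 percentage points of the listed pairs, against -6.63 points of the assignments, and the groups overlapped (exact permutation p = 0.5).

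The copy classes were then summed one by one. The plain copies together took 4.69%, 4.98% and 8.21% of the KO libraries, against 7.13%, 7.90% and 7.51% of the WT libraries, and the groups overlapped (exact permutation p = 0.4, adjusted 0.438). The D copies took 3.46%, 1.54% and 2.34% of the KO libraries, against 7.84%, 5.85% and 5.49% of the WT libraries (exact permutation p = 0.1). The N copies took 0.505%, 0% and 0.703% of the KO libraries, against 1.39%, 1.86% and 1.37% of the WT libraries (exact permutation p = 0.1). Which classes separated depended on the setting. The plain copies also separated without KO replicate 3, by -2.68 percentage points, KO minus WT, against -1.55 with it, and with only pairs of at least 0.117% kept, by -4.45 points (exact permutation p = 0.1 each). With those pairs alone the N difference turned to 0.196 points higher in KO. With every listed pair given the same weight, the plain difference turned to 0.438 points higher in KO and the D difference shrank to -1.28 points, with overlap (exact permutation p = 0.2). D and N copies were also summed as 1 class, a choice made after the sequences and the values were seen. They then took 3.97%, 1.54% and 3.05% of the KO libraries, against 9.24%, 7.71% and 6.86% of the WT libraries (exact permutation p = 0.1, adjusted 0.133 over 28 values).

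**Figure D2:**
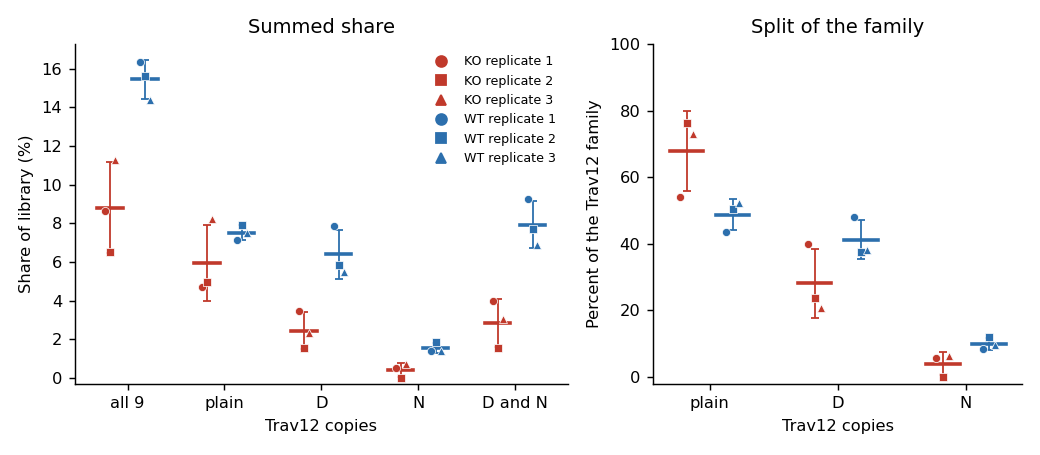
Left, share of each Tcra library (percent) taken by all 9 Trav12 members and by each copy class; right, the percentage of the family's own assignments on plain, D and N copies. Points are single libraries, KO in red to the left of WT in blue, bars are means and whiskers SD (n = 3 each). In the left panel D and N copies lie lower in KO in every library, while the plain copies of KO replicate 3 lie above all WT libraries; in the right panel the D part of KO replicate 1 lies among the WT libraries.

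The split of the family between copies was compared next. Plain copies made up 54.2%, 76.4% and 72.9% of the family in the KO libraries, against 43.6%, 50.6% and 52.3% in the WT libraries. Every KO value was above every WT value, though KO replicate 1 exceeded the highest WT library by little (exact permutation p = 0.1). With every listed pair given the same weight the groups overlapped (12.1 points higher in KO; exact permutation p = 0.3). D copies made up 40.0%, 23.6% and 20.8% in the KO libraries, against 47.9%, 37.5% and 38.2% in the WT libraries, with overlap (exact permutation p = 0.3, adjusted 0.345). N copies made up 5.83%, 0% and 6.25% in the KO libraries, against 8.52%, 11.9% and 9.55% in the WT libraries (exact permutation p = 0.1). In the other families with D or N copies the plain part was 60.9%, 52.9% and 63.2% in the KO libraries, against 53.0%, 53.2% and 62.1% in the WT libraries. Those groups overlapped. The plain part of Trav12 minus that of the other families was -6.77, 23.5 and 9.73 percentage points in the KO libraries, against -9.42, -2.62 and -9.84 points in the WT libraries, which also overlapped, so the split was not shown to be particular to Trav12.

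Summed by number instead, segments of number 1 did not separate and those of numbers 2 and 3 did. Number 1 took 1.88%, 2.73% and 3.17% of the KO libraries, against 2.73%, 2.67% and 2.17% of the WT libraries (exact permutation p = 0.8, adjusted 0.8). Number 2 took 3.86%, 2.79% and 4.69% of the KO libraries, against 6.77%, 7.98% and 7.46% of the WT libraries (exact permutation p = 0.1). Number 3 took 2.92%, 1.01% and 3.40% of the KO libraries, against 6.88%, 4.96% and 4.74% of the WT libraries (exact permutation p = 0.1). These sums do not depend on how reads were divided between identical D and N copies. With every listed pair given the same weight neither separated, number 2 differing by -1.34 points (exact permutation p = 0.3) and number 3 by -0.635 points (exact permutation p = 0.5), KO minus WT.

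J use of the family was then compared. Traj segments are numbered downwards along the array, so a high number is near the V segments; segments numbered 42 or more (13 of 43) are called 5′ J here and those numbered 21 or less (14) 3′ J. Most Trav12 assignments in KO were joined to 5′ J segments. The 5′ J part of the family was 63.8%, 89.1% and 87.5% in the KO libraries, against 23.3%, 25.1% and 25.1% in the WT libraries. The 3′ J part was 13.5%, 3.64% and 1.04% in the KO libraries, against 39.7%, 35.8% and 29.5% in the WT libraries. The mean J number was 42.8, 51.4 and 50.8 in the KO libraries, against 27.8, 28.9 and 30.0 in the WT libraries. All 3 measures separated without overlap (exact permutation p = 0.1 each), and KO replicate 1 was the KO library nearest to WT in each.

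By J segment, the first 3 of the array led in KO. Traj58 took 18.4% ± 4.82 of the family in KO and 3.00% ± 1.33 in WT, Traj57 16.3% ± 3.87 in KO and 1.84% ± 0.628 in WT, and Traj56 12.8% ± 3.90 in KO and 2.30% ± 0.517 in WT (SD, n = 3 each). The segment most used in WT was Traj31, with 0.694% ± 1.20 of the family in KO and 5.66% ± 0.949 in WT, listed at 0 in KO replicates 2 and 3. Of the 43 J segments, 6 lay higher and 21 lower in every KO library than in every WT library within the family. Over all V segments 23.3% lay higher and 53.5% lower by the same count. The 6 higher ones were all among the 13 5′ J segments, where 10 were higher over all V segments. Of the 14 3′ J segments 11 were lower in the family and 14 over all V segments. Among the 5′ J segments, Traj43 alone was lower, with 0.789% ± 0.329 of the family in KO and 2.36% ± 0.661 in WT (SD, n = 3 each), and was singled out after its values were seen.

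**Figure D3:**
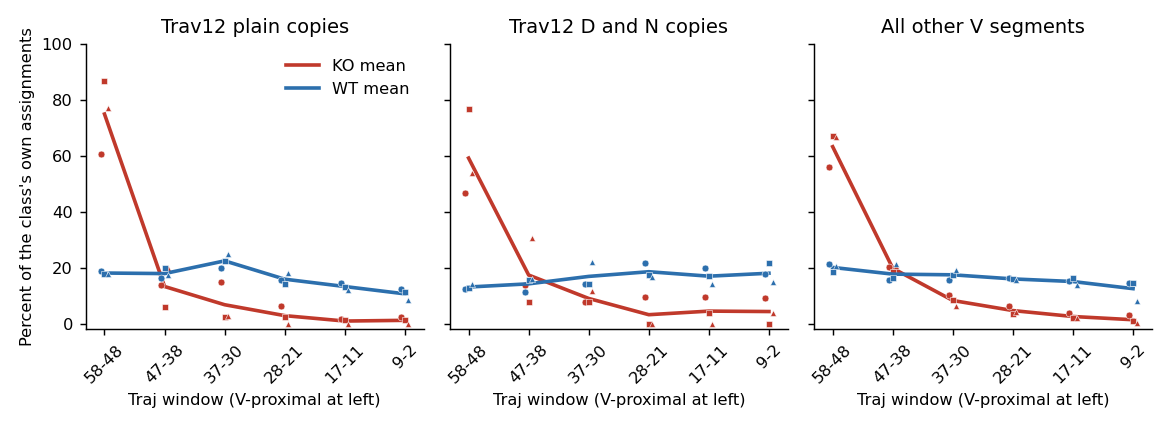
Percentage of each class's own assignments (vertical axis) in 6 windows of the Traj array, from the V-proximal window at left to the V-distal window at right. Lines are means of KO (red) and WT (blue), points single libraries (n = 3 each); panels are Trav12 plain copies, Trav12 D and N copies as 1 class, and all 108 other V segments. KO lines peak in the first window in every panel, and the WT line of the D and N copies is lowest in the first window.

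In WT the mean J use of plain copies differed from that of D and N copies together, a contrast not tested within WT alone. TRAV12D-3 was the most used D or N copy in WT, so this contrast mixes copy with number. Plain copies used the first window, Traj58 to Traj48, in 18.1% ± 0.701 of their WT assignments, while D and N copies together used it in 13.1% ± 0.865. The last window, Traj9 to Traj2, took 10.6% ± 2.04 of the plain copies' WT assignments and 18.0% ± 3.46 of those of D and N copies. In KO the first window took 74.9% ± 13.2 of the plain copies' assignments and 59.2% ± 15.7 of those of D and N copies. The last window took 1.17% ± 1.15 of plain and 4.31% ± 4.56 of D and N assignments in KO (SD, n = 3 libraries throughout).

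Summed by class, the mean J number put plain copies nearer to the 5′ end than D copies in every library. It was 46.2, 52.0 and 52.2 for plain copies in the KO libraries, against 30.9, 31.6 and 31.5 in the WT libraries. It was 38.6, 49.6 and 45.8 for D copies in the KO libraries, against 25.8, 26.5 and 29.0 in the WT libraries. Plain minus D was positive in 6 of 6 libraries, with a mean of 4.85 J numbers, and the 5′ J part was 10.1 percentage points higher in plain copies, also in 6 of 6. Both reached p = 0.03125 in an exact sign-change test within libraries (two-sided), the lowest that 6 libraries allow, and an adjusted p of 0.0859 over 11 such comparisons. This test pools both genotypes. With every listed pair given the same weight, the differences were smaller and no longer held in every library. They were 1.84 J numbers (exact sign-change p = 0.188) and 5.45 points of 5′ J (exact sign-change p = 0.156). The D class was mostly TRAV12D-3 in WT, so it mixes copy with number. Within number 1 the D copy was higher in KO replicate 2 (51.65 against 50.69) and WT replicate 3 (30.84 against 30.82). Within number 2 it was higher in WT replicate 2 (33.48 against 30.90), and within number 3 in KO replicate 2 (47.6 against 46.7). In all other libraries the plain copy of each number was higher.

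N copies could be compared in 5 libraries, since KO replicate 2 listed none. Their mean J number was 40.3 and 51.0 in KO replicates 1 and 3, against 23.7, 25.0 and 25.9 in the WT libraries. Plain copies were higher in 5 of 5 libraries, by 5.27 J numbers on average (exact sign-change p = 0.0625, the smallest that 5 libraries allow, adjusted 0.0982). D minus N was positive in the 3 WT libraries and negative in the 2 KO libraries, with a mean of -0.07 (exact sign-change p = 0.938, adjusted 0.969). The N class was almost wholly TRAV12N-2, so comparisons with it mix copy with number too. With D and N as 1 class, plain copies were higher by 7.41, 2.39 and 5.20 J numbers in the KO libraries, against 5.41, 5.48 and 3.05 in the WT libraries. The mean difference was 4.82 (exact sign-change p = 0.03125, adjusted 0.0729 over 14 comparisons).

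The shift in mean J number, KO minus WT, was 18.8 for plain and 17.5 for D copies (exact permutation p = 0.1 each). The difference between plain and D copies was 5.48 ± 2.75 in KO and 4.22 ± 1.54 in WT, and overlapped between genotypes (exact permutation p = 0.6, adjusted 0.627). KO minus WT of that difference was 1.26, but 2.80 without KO replicate 2 and 3.87 with every listed pair given the same weight, both without overlap, and -10.2, without overlap the other way, with only pairs of at least 0.117% kept (exact permutation p = 0.1 each). With D and N as 1 class it was 5.0 ± 2.5 in KO and 4.65 ± 1.38 in WT (SD, n = 3 each; exact permutation p = 1). With 3 libraries a genotype these values do not show that the shifts were equal. In the other families with copies the mean J number was 46.1 ± 2.19 in KO and 31.3 ± 1.53 in WT for plain segments, 45.5 ± 4.43 in KO and 27.8 ± 1.71 in WT for D segments, and 44.9 ± 3.57 in KO and 27.2 ± 1.79 in WT for N segments (SD, n = 3 each). The order of plain above D and N in WT was thus not confined to Trav12.

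**Figure D4:**
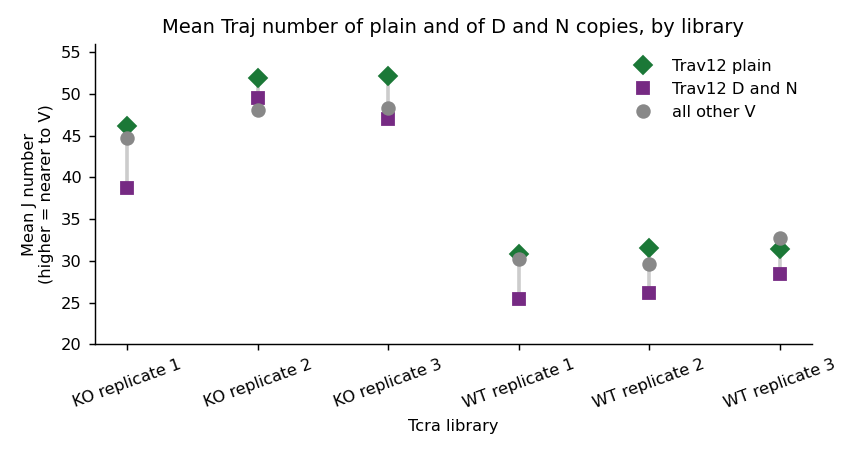
Mean Traj number (vertical axis; a higher number is nearer to the V segments) of Trav12 plain copies (diamonds), Trav12 D and N copies as 1 class (squares) and all other V segments (circles) in each Tcra library, KO at left and WT at right. The diamond lies above the square in all 6 libraries, by 2.39 to 7.41 J numbers, while the circle lies above, between or below them.

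The family as a whole was not shown to stand apart from all other V segments in J use. Those 108 segments had a mean J number of 44.7, 48.1 and 48.3 in the KO libraries, against 30.2, 29.6 and 32.7 in the WT libraries. Family minus other segments was -1.89, 3.27 and 2.41 in the KO libraries, against -2.40, -0.70 and -2.72 in the WT libraries. It averaged -0.34 over the 6 libraries and was positive in 2 of them (exact sign-change p = 0.781, adjusted 0.955). That test pools genotypes whose means differ in sign, so it cannot show that the family did not differ. With 3 libraries of 1 genotype the exact sign-change p cannot go under 0.25. By genotype the difference was 1.26 ± 2.77 in KO and -1.94 ± 1.09 in WT, with overlap (SD, n = 3 each; exact permutation p = 0.2, adjusted 0.242).

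The mean J number of single members in WT was then ranked. Among 38 V segments with a mean share of at least 0.5% and a value above 0 in every library, TRAV12D-3 had the third lowest mean J number in WT, with 44.0 ± 7.03 in KO and 25.9 ± 1.79 in WT. TRAV12D-1 stood at rank 8 from the lowest, with 49.4 ± 3.17 in KO and 28.5 ± 2.15 in WT. TRAV12D-2 stood at rank 14 of 38, and the plain segments TRAV12-1, TRAV12-3 and TRAV12-2 at ranks 16, 24 and 25. TRAV12-2 had a mean J number of 51.2 ± 4.97 in KO and 31.6 ± 0.752 in WT, TRAV12-1 49.3 ± 2.82 in KO and 30.2 ± 2.19 in WT, and TRAV12-3 48.8 ± 2.04 in KO and 31.2 ± 2.68 in WT (SD, n = 3 each). From TRAV12D-1 to TRAV12-2 neighbours in this order differed by less than their spread, while TRAV12D-3 lay below TRAV12D-1 by more than the SD of either. The order did not hold in KO, where TRAV12D-1 averaged above TRAV12-1 and TRAV12-3, nor in each WT library, since TRAV12D-2 lay above TRAV12-1 and TRAV12-2 in WT replicate 2.

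The shift of single members was read against that of other V segments. In 5 of these 6 members every KO library had a higher mean J number than every WT library, while 76.3% of the 38 V segments did. TRAV12D-2 was the exception, with 37.7, 18.0 and 37.8 in the KO libraries, against 23.8, 33.5 and 31.1 in the WT libraries; its lowest value is the single pair listed in KO replicate 2. The median shift was 18.6 J numbers over the 6 members and 12.3 over the 32 other segments. Those others include TRAV17, TRAV19, TRAV21/DV12, TRDV1 and TRDV2-2, with WT mean J numbers of 44.7 to 50.4 and shifts of 0.976 to 3.525. They also include TRAV6-5, TRAV3-4 and TRAV7D-5, with shifts of 20.8, 20.3 and 19.6. The larger median was thus not shown to be particular to Trav12. TRAV12N-2, not among the 38 because KO replicate 2 listed it at 0, had a mean J number of 40.3 and 51.0 in KO replicates 1 and 3, against 23.4, 24.7 and 26.3 in the WT libraries. In WT its J profile shared 66.4%, 59.5% and 51.9% with that of TRAV12D-2, the copy of identical sequence, in libraries 1 to 3. TRAV12D-2 shared 51.3% to 58.5% with itself between WT libraries. The plain copy TRAV12-2, which differs in sequence, shared 60.0%, 72.7% and 62.4% with TRAV12N-2 in the same libraries, more than TRAV12D-2 did in 2 of them, so these profiles do not single out the identical copies.

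**Figure D5:**
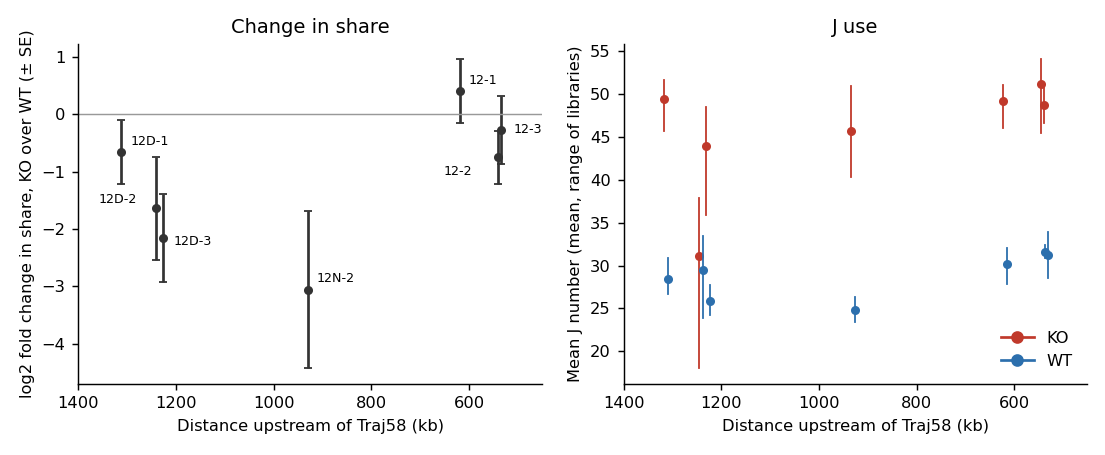
Trav12 members by distance upstream of Traj58 (kb, horizontal axis, D copies at left, TRAV12N-2 in the middle, plain copies at right). Left, log2 fold change in share, KO over WT, with SE; right, mean Traj number in KO (red) and WT (blue), with lines over the range of libraries (n = 3 each, but 2 KO libraries for TRAV12N-2). The 3 plain copies have fold changes from -0.75 to 0.41 and WT mean J numbers from 30.2 to 31.6.

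Pairs of a Trav12 segment with a J segment were tested in the same way, over the 202 Tcra pairs that averaged 0.1% or more. Of the 25 Trav12 pairs tested, 3 rose and 7 fell in KO (limma adjusted p below 0.05), beside 22.8% that rose, 12.9% that fell and 35.6% in either direction among all pairs tested. The count is not stable. It was 0 without KO replicate 2 or without any 1 of WT replicates 1, 2 and 3, 6 without KO replicate 3, and 11 without KO replicate 1. Over all 202 pairs, 72 were called, but 11 without KO replicate 2 and 12, 7 and 19 without WT replicates 1, 2 and 3. That count was 58 without KO replicate 3 and 69 without KO replicate 1. The loss of calls was thus not particular to the family. The filter keeps a pair on its mean, so most of the family's listed pairs were too rare to be tested. Each called pair averaged under 0.1% in the genotype where it was lower, so it passed the filter only through the other genotype. With no filter, 2 of 302 Trav12 pairs rose and 34 fell, beside 140 of 3123 called in either direction among all pairs. The balance of 3 rises and 7 falls thus depends on the filter.

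All 3 pairs that rose joined a plain copy to Traj57 or Traj56. No D or N pair with either J segment reached the 0.1% filter, so only plain copies could be called there. The calls thus do not set plain copies apart from D and N copies. TRAV12-1 with Traj57 took 0.144%, 0.356% and 0.821% of the KO libraries, against 0.0317%, 0.0787% and 0.0241% of the WT libraries (log2 fold change 2.71 ± 0.81, SE; limma adjusted p = 0.0309). TRAV12-2 with Traj57 took 0.343%, 0.771% and 0.469% of the KO libraries, against 0.111%, 0.0787% and 0.0722% of the WT libraries (log2 fold change 2.34 ± 0.68; limma adjusted p = 0.0305). TRAV12-1 with Traj56 took 0.162%, 0.119% and 0.234% of the KO libraries, against 0.0158%, 0.0472% and 0.0241% of the WT libraries (log2 fold change 2.08 ± 0.69; limma adjusted p = 0.0404). After the centring described above none of the 3 passed. TRAV12-1 with Traj56 was also lost with the larger pseudocount (limma adjusted p = 0.0624), a variance trend (limma adjusted p = 0.0752) and no filter on low shares (limma adjusted p = 0.0547).

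TRAV12-2 with Traj58 had the highest mean over all 6 libraries. Its WT mean, 0.185%, was below that of TRAV12-2 with Traj31, 0.313%, though in WT replicate 1 it was above. TRAV12-2 with Traj58 did not pass. It took 0.505%, 0.356% and 1.29% of the KO libraries, against 0.206%, 0.252% and 0.0963% of the WT libraries (log2 fold change 1.75 ± 0.77; limma adjusted p = 0.0906). It passed with the larger pseudocount (limma adjusted p = 0.0288) and with a variance trend (limma adjusted p = 0.0313). TRAV12-2 with Traj56 took 0.253%, 0.652% and 0.469% of the KO libraries, against 0.190%, 0.110% and 0.193% of the WT libraries (limma adjusted p = 0.146). TRAV12-1 with Traj58 took 0.108%, 0.356% and 0.469% of the KO libraries, against 0.0317%, 0.126% and 0.0241% of the WT libraries, with overlap (limma adjusted p = 0.0648).

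The 7 pairs that fell belonged to TRAV12-2 and TRAV12D-3, the most used plain copy and the most used D copy. No other member had a tested pair with a J segment of these 7 pairs, so none could be called there. The falls thus do not set these 2 segments apart from the other members. TRAV12-3 with Traj31, too rare to be tested, was listed at 0 in all 3 KO libraries, against 0.111%, 0.0629% and 0.0722% of the WT libraries. TRAV12-2 with Traj31 took 0.0722%, 0% and 0% of the KO libraries, against 0.190%, 0.315% and 0.433% of the WT libraries (log2 fold change -3.49 ± 0.85; limma adjusted p = 0.0202). TRAV12-2 with Traj37 and with Traj34 were likewise listed at 0 in KO replicates 2 and 3, with log2 fold changes of -3.21 and -3.15. TRAV12D-3 with Traj4 took 0.0722%, 0% and 0% of the KO libraries, against 0.285%, 0.315% and 0.168% of the WT libraries (log2 fold change -3.24 ± 0.84; limma adjusted p = 0.0206). TRAV12D-3 with Traj15 took 0.0722%, 0% and 0% of the KO libraries, against 0.269%, 0.252% and 0.217% of the WT libraries (log2 fold change -3.22 ± 0.83; limma adjusted p = 0.0205). The others were TRAV12-2 with Traj26 and TRAV12D-3 with Traj12, with log2 fold changes of -2.87 and -2.45. Other pairs of both segments were lower in every KO library but too rare to be tested, such as TRAV12-2 with Traj12 (listed at 0 in all 3 KO libraries, against 0.143%, 0.173% and 0.193% of the WT libraries) and TRAV12D-3 with Traj31 (0.0180%, 0% and 0% of the KO libraries, against 0.206%, 0.220% and 0.120% of the WT libraries), so the J segments of the called pairs do not set the 2 V segments apart. KO replicate 3 listed no value between 0 and 0.117%, so these fold changes depend on the pseudocount.

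Coverage of the pair grid went the same way. Over all libraries 302 of the 387 Trav12 pairs were listed at least once, 17 in all 6 libraries, 123 in WT only and 2 in KO only. TRAV12-2 had 32, 10 and 9 of its 43 J segments above 0 in the KO libraries, against 39, 42 and 39 in the WT libraries. TRAV12D-3 had 34, 3 and 7 in the KO libraries, against 43, 41 and 39 in the WT libraries. Over all V segments, 1380, 555 and 374 pairs were above 0 in the KO libraries, against 1978, 1969 and 1573 in the WT libraries. Fewer listed pairs in KO were thus not particular to the family. KO replicates 2 and 3 are also the libraries of coarsest resolution, and the part of resolution in these counts was not tested.

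Among 37 V segments outside the family with a mean share of at least 0.5%, those whose shares over the 6 libraries were most like the family's total were TRAV7-3 (Pearson r = 0.951), TRAV7-4 (r = 0.933) and TRAV14N-3 (r = 0.868). These values describe 6 libraries that fall into 2 genotypes, and all shares in a library have the same total. TRAV7-3 took 0.559%, 0.119% and 0.469% of the KO libraries, against 1.58%, 2.00% and 1.49% of the WT libraries.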

How the data were processed

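Thymocyte receptor transcripts were amplified by 5′ RACE with a primer in the constant region and sequenced in paired reads, per the labels' protocols. Reads were trimmed with fastp (version not stated), per the submitters' processing notes; no V–J caller, reference or build is stated in the sources used here. The deposited Tcra tables give the percent of each library's V–J assignments per pair, as the authors made them. Read numbers are not included, so no counting interval can be given.

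From these, shares and J use were summed per library. The test across features was that of limma (version 3.58.1, R 4.3.3), applied to log2(percent + 0.0157) of V segments and pairs averaging 0.1% or more, with Benjamini-Hochberg adjustment over all features tested; the script was tested on simulated data. Single values were compared with exact two-sided permutation tests in Python 3.11.15, and sequences were taken from GENCODE M21. All members were named; of the pairs, the 5 with the highest mean share and the 5 highest and 5 lowest called fold changes were. The members and lists were chosen with earlier results of these data known. Equal replicate numbers were not shown to pair the libraries: deviations from the group means correlated with r = 0.318, -0.0367 and 0.184 for V segments and 0.0634, 0.135 and 0.170 for V–J pairs, so not every pair exceeded 0.1, although for V–J pairs the highest r between unlike numbers was 0.0356. Expression of Satb1 and of cell type markers cannot be read from receptor amplicons. The tables of the other 3 chains were not used.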

Additional observations from a re-analysis of the deposited data

Results flagged for a closer look

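The difference between D and N copies in J use pointed one way in every WT library and the other way in every KO library with an N value. D minus N in mean J number was -1.76 and -5.25 in KO replicates 1 and 3, against 2.07, 1.48 and 3.09 in the WT libraries, a difference between genotypes of -5.72 J numbers (exact permutation p = 0.1, the smallest that 2 against 3 libraries allow, adjusted 0.135). The same contrast in the 5′ J part was -5.51 and -8.33 percentage points in KO replicates 1 and 3, against 5.56, 6.21 and 10.1 points in the WT libraries, a difference of -14.2 points that was not tested. The D and N copies of each number have identical annotated sequence, and the N values rest on 17 and 6 listed TRAV12N-2 pairs in these KO libraries. The D class was mostly TRAV12D-3 in WT and the N class almost wholly TRAV12N-2, so the contrast mixes copy with number. Within number 2, TRAV12D-2 had a mean J number of 37.7 and 37.8 in KO replicates 1 and 3, against 40.3 and 51.0 for TRAV12N-2. In the WT libraries TRAV12D-2 had 23.8, 33.5 and 31.1, against 23.4, 24.7 and 26.3 for TRAV12N-2. That contrast was not tested.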

How the results depend on the processing

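Direction was kept by 178 of 184 recomputed values compared between genotypes, 35 of 37 genotype differences between copies and 84 of 99 contrasts within libraries; comparisons between genotypes could not pass an adjusted p of 0.05 in any of these designs. When every listed pair got the same weight, separation by genotype was lost for the family share and the shares of D copies, number 2 and number 3, the plain share turned to 0.438 points (KO minus WT), plain minus N in mean J, KO minus WT, to 0.369, and family minus other V segments to 0.605 J numbers and 2.60 points of 5′ J. When only pairs of at least 0.117% were kept, the N share turned to 0.196 points and the N part of the family to 2.71 points (KO minus WT), plain minus D in mean J, KO minus WT, to -10.2, D minus N to 4.02 J numbers, and family minus other V segments to 0.244 J numbers and 0.755 points of 5′ J. With other J bounds D minus N in 5′ J turned to -0.0223 points. The causes were not tested. Leaving out 1 library at a time gave -0.220 to 0.425 points for the share of number 1 (KO minus WT), -0.865 to 1.22 J numbers and -0.518 to 4.09 points for D minus N, and -1.06 to 0.138 J numbers and -2.75 to 0.998 points for family minus other V segments.

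The count of Trav12 V segments called by limma was 0, and 0 without any 1 library. It was 2 with the larger pseudocount, beside 18 of all 84 V segments tested, and 1 with a variance trend, beside 11 of 84. The log2 fold change of TRAV12-3 lay between -0.77 and 0.047 with 1 library left out, above 0 only without KO replicate 2; centring gave 0.65 for it, 0.18 for TRAV12-2 and 0.27 for TRAV12D-1. The count of Trav12 pairs called was 10, and 0 to 11 with 1 library left out, when 7 to 69 of all 202 pairs were called. It was 36 of 302 with no filter on low shares, beside 140 of 3123 among all pairs. With the plain, D and N copies of a number summed it was 24 of 45, beside 106 of 268 among all pairs. With the replicate block, 0 V segments and 13 pairs of the family were called, and over all features 15 V segments instead of 4 and 84 pairs instead of 72; the numbers were not shown to pair the libraries.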
